A study of Mus musculus with 27 samples.

Results

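The 10 genes of MHC class II antigen presentation were followed in sorted cells of NOD mice: H2-Aa, H2-Ab1, H2-Eb1, Cd74, H2-DMa, H2-DMb1, H2-DMb2, H2-Oa, H2-Ob and Ciita. They were taken by symbol from a fixed list, and all 10 were found among the 54446 gene identifiers measured. The mice were NOD/ShiLtJ, a strain that develops autoimmune diabetes, and were 12 weeks old. Transgenic animals (TG+) carried Ins2-CCL21, in which the insulin promoter of beta cells drives the chemokine CCL21, and the others (TG-) did not. By label, the 27 RNA-sequencing libraries comprised 8 of islet lymphocytes sorted on CD45 (genotypes split 4 TG- and 4 TG+) and 4 of islet cells high in gp38 (2 of each genotype). A further 8 came from islet cells low in gp38 (4 of each) and 7 from fibroblastic reticular cells (FRCs) of lymph nodes, 4 of them TG- and 3 TG+. FRCs are the stromal cells of the lymph node T cell zone, and gp38 is the podoplanin protein encoded by Pdpn. Separate animals are not stated for the libraries within a group. The p-values therefore reflect library-to-library spread alone, part of which may be technical.

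Class II molecules display peptides from endocytosed proteins to CD4+ T cells. An α and a β chain (H2-Aa with H2-Ab1 for I-A) assemble around the invariant chain Cd74, cathepsins cut Cd74 down to a short peptide in the groove, H2-DM exchanges that peptide for an antigen, and H2-DO restrains H2-DM. Ciita is the coactivator that switches class II genes on at promoters bound by RFX, CREB and NF-Y. B cells, dendritic cells and macrophages express the classical chains and Cd74 constitutively, and interferon gamma can induce it in stromal cells such as FRCs.

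Promoter sequences are shown first, because all 10 members were higher in 1 class of libraries described below. In the RefSeq promoter windows of GRCm38.p6 (250 bases before to 50 after a start), 7 of the 10 genes had an entry. The letters TGATTGG, the core of the Y box bound by NF-Y, were searched on both strands and occurred in 7.82% of 32851 windows and in 6 of 8 windows of these genes. The letters AACNNATG, a part of the X box bound by RFX and CREB, occurred in 8.86% of all windows and in 4 of the 8. Both together on 1 strand, with AACNNATG starting 15 to 45 bases before TGATTGG, occurred in 18 windows (0.0548%). Those windows belonged to 18 genes, of which 5 were H2-DMb1, H2-DMb2, H2-Eb1, H2-Ob and the class II gene H2-Eb2. The letters were chosen after these promoters had been read, so the counts are a description. Below, each line gives the reference sequence, not the NOD sequence, 5′ to 3′ on the gene's strand, with these letters in capitals. H2-DMb2 lies at chr17:34145108-34145183 (plus strand), H2-Ob at chr17:34238800-34238872 (plus), H2-Eb1 at chr17:34305758-34305832 (plus), H2-Eb2 at chr17:34325525-34325599 (plus) and H2-Aa at chr17:34287847-34287933 (minus).
H2-DMb2: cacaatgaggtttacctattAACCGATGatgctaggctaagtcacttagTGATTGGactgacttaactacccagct
H2-Ob: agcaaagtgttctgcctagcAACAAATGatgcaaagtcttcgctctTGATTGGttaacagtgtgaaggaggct
H2-Eb1: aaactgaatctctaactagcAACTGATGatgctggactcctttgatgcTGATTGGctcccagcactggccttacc
H2-Eb2: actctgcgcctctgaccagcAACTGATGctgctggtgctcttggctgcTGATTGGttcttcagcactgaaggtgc
H2-Aa: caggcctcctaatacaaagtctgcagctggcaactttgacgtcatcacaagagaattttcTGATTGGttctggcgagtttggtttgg

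From the start of AACNNATG to the start of TGATTGG there were 29 bases in H2-DMb2 and H2-DMb1, 26 in H2-Ob and 28 in H2-Eb1 and H2-Eb2. The H2-Aa window held TGATTGG without AACNNATG. These letters are only a part of the X box, so their absence does not show that an X box is lacking. The H2-Oa window also held TGATTGG alone, and that segment and the H2-DMb1 segment are not printed because they overlap annotated exons. The 2 H2-DMa windows held neither string, which says only that these letters are not in those windows. A match is a string of letters and not a measured binding site.

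On mm10 (GRCm38) 8 of the 10 genes lie within chromosome 17, 34092340 to 34316674, in the mouse MHC. In the GENCODE M21 annotation these are H2-Oa (34092340 to 34095234), H2-DMa (34119541 to 34139101), H2-DMb2 (34143307 to 34151555), H2-DMb1 (34153072 to 34160230), H2-Ob (34238903 to 34254414), H2-Ab1 (34257689 to 34269419), H2-Aa (34282744 to 34287823) and H2-Eb1 (34305867 to 34316674). Cd74 lies at chromosome 18, 60803848 to 60812652, and Ciita at chromosome 16, 10480059 to 10528418. Counts are reads over whole genes, exons only. NOD mice carry their own MHC haplotype, and reads were aligned to the reference genome. The loss of reads over differing bases was not tested, and levels of the polymorphic chains are relative within these libraries.

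Libraries held 8517844 to 25194443 reads in genes, and levels are given as CPM, each count divided by those reads and scaled to a fixed total. The non-coding RNA Gm26917 took 5.31% to 36.0% of the reads in genes and lowers every other CPM unevenly. The transcripts behind the sort markers went against the label in many libraries, so the libraries were also placed in 4 classes by 3 transcripts. In 8 libraries Ptprc, which encodes CD45, exceeded 100 CPM (Ptprc-high). Of the others, Ccl21a exceeded 1000 CPM in 7 (Ccl21a-high), the mesothelial gene Msln exceeded 100 CPM in 4 (Msln-high), and 8 remained. The lowest Ptprc inside its class was 169 CPM and the highest outside was 5.79 CPM. The corresponding values were 2162 and 5.28 CPM for Ccl21a, and 573 and 2.52 CPM for Msln. Of the 8 Ptprc-high libraries 5 were labelled lymph node FRC and 1 each CD45, gp38-high and gp38-low. Of the 8 libraries labelled CD45, 4 were Ccl21a-high, 1 was Msln-high and 2 were in the remaining class. Pdpn was 0 to 1.01 CPM in Ptprc-high libraries and 51.1 to 218 CPM in all others. The classes rest on measured values, so levels between them are given as descriptions without tests, and a library is named by its label only as "the library labelled". In bulk RNA, fewer cells of a type and less RNA per cell cannot be told apart.

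All 10 genes were higher in each of the 8 Ptprc-high libraries than in any of the other 19. The same complete separation held for 12.4% of the 14959 genes with a mean of at least 1 CPM, of which these 10 are part. Their summed level had a median of 17677 CPM (range 12571 to 21285) in Ptprc-high libraries. It was 222 CPM (211 to 326) in Ccl21a-high, 328 CPM (142 to 355) in Msln-high and 31.7 CPM (22.2 to 57.8) in the remaining libraries. The group was therefore detected in every library, over a range from the remaining libraries to the Ptprc-high ones that exceeded the spread inside any class.

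The classical chains set the scale. H2-Ab1, the I-A β chain, had a lowest, median and highest level of 2240.4, 3073 and 3262 CPM in Ptprc-high libraries, and of 39.6, 50.2 and 76.2 CPM in Ccl21a-high libraries. In the 4 Msln-high libraries it was 24.8, 58.7, 59.5 and 68.7 CPM, and in the remaining libraries 2.59, 4.99 and 10.5 CPM. The Ccl21a-high and Msln-high ranges overlapped, and both lay wholly above the remaining libraries. H2-Aa, the I-A α chain, followed with 3287, 4301 and 4746 CPM in Ptprc-high libraries, 19.3, 24.2 and 44.1 CPM in Ccl21a-high, 19.999 to 65.7 CPM in Msln-high and 2.09 to 12.5 CPM in the remaining libraries. H2-Eb1, the I-E β chain, was 1965 to 3174 CPM, 15.6 to 42.8 CPM, 16.99 to 50.5 CPM and 3.26 to 10.7 CPM in the same order. All 3 chains thus kept the same order of classes. The I-E α gene of the reference, H2-Ea-ps (an annotated pseudogene), was at 0 in the 19 other libraries and at most 0.109 CPM in Ptprc-high libraries. NOD mice are known to lack I-E at the cell surface.

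Cd74, which encodes the invariant chain that occupies the groove until the endosome, was the most abundant of the group in every class per length of exon. Its lowest, median and highest levels were 3931, 6393 and 8734 CPM in Ptprc-high libraries, 97.4, 124 and 135 CPM in Ccl21a-high and 7.88, 11.8 and 17.2 CPM in the remaining libraries. The 4 Msln-high libraries held 67.2, 146, 149.5 and 197 CPM. As for H2-Ab1, the Ccl21a-high and Msln-high ranges overlapped and the remaining libraries lay below both.

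**Figure D1:**
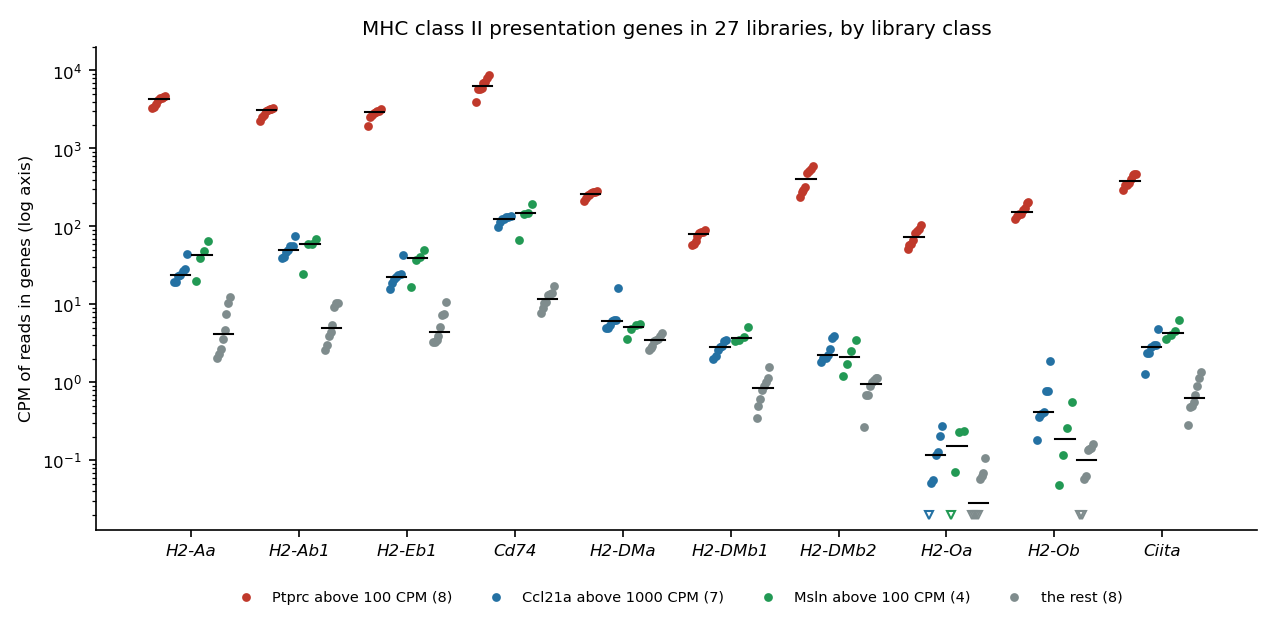
Levels of the 10 class II presentation genes (x axis) in 27 libraries, as CPM of reads in genes on a log axis. Each point is 1 library, colours are the 4 library classes, black bars are class medians and open triangles at the lower edge are libraries at 0. The Ptprc-high points sit above all others for every gene, and the Ccl21a-high and Msln-high points overlap each other.

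H2-DM is a dimer of H2-DMa with an H2-DMb chain. H2-DMa was 211, 262 and 287 CPM (lowest, median, highest) in Ptprc-high libraries and 4.96, 6.06 and 16.1 CPM in Ccl21a-high libraries. The 4 Msln-high libraries held 3.64 to 5.55 CPM and the remaining libraries 2.58 to 4.31 CPM. The Msln-high and remaining ranges of H2-DMa thus overlapped. H2-DMb1 was 57.4 to 90.3 CPM in Ptprc-high libraries, 1.97 to 3.54 CPM in Ccl21a-high, 3.397 to 5.20 CPM in Msln-high and 0.353 to 1.56 CPM in the remaining libraries. H2-DMb2 was 241 to 598 CPM, 1.83 to 3.95 CPM, 1.20 to 3.504 CPM and 0.272 to 1.153 CPM in that order. H2-DMb1 and H2-DMb2 are near-identical neighbours and only uniquely mapped reads were counted, so the split of reads between them is uncertain.

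H2-DO, the inhibitor of H2-DM, is a dimer of H2-Oa and H2-Ob and is known mainly from B cells, dendritic cells and the thymus. H2-Oa was 51.0, 74.0 and 104 CPM (lowest, median, highest) in Ptprc-high libraries, from 434 to 1513 counts. In the other 19 libraries together it had 26 counts, at most 5 in any library, and 6 of those libraries were at 0. At this depth the floor of 3 counts that goes with a 0 equals 0.119 to 0.352 CPM over the 27 libraries, for counting error only. H2-Ob was 126, 153 and 207 CPM in Ptprc-high libraries and 0.183 to 1.89 CPM in Ccl21a-high libraries, where its counts were 2 to 32. It had 1 to 8 counts in Msln-high and 0 to 3 in the remaining libraries. At this depth no order among the 3 stromal classes could be read for H2-Oa, and the counts of H2-Ob overlapped between them.

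Ciita, the coactivator of the group, was 293, 383 and 476 CPM (lowest, median, highest) in Ptprc-high libraries and 1.28, 2.81 and 4.79 CPM in Ccl21a-high libraries. The 4 Msln-high libraries held 3.64, 4.11, 4.57 and 6.31 CPM, and the remaining libraries 0.288 to 1.37 CPM. The remaining libraries reached into the Ccl21a-high range and stayed below all Msln-high libraries.

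Counted gene by gene, 8 of the 10 were higher in all Ccl21a-high libraries than in all remaining ones, the exceptions being H2-Oa and Ciita. That separation held for 9.77% of the 14959 genes. For H2-Ob it rested on 0.183 CPM (2 counts) in the lowest Ccl21a-high library against 0.163 CPM (3 counts) in a remaining library. Both counts lie at or below the floor of 3, so no order is read for H2-Ob. H2-DMb1 and H2-DMa were also close, with 1.97 CPM (25 counts) against 1.56 CPM (27 counts) and 4.96 CPM (96 counts) against 4.31 CPM (61 counts). Higher in all Msln-high libraries than in all remaining ones were 7 of 10 (all but H2-DMa, H2-Oa and H2-Ob), beside 19.9% of all genes. For H2-DMb2 this rested on 1.196 CPM (17 counts) in the lowest Msln-high library against 1.153 CPM (20 counts) in a remaining library. That gap lies within counting error, so no order of these 2 classes is read for H2-DMb2. Between Ccl21a-high and Msln-high libraries none of the 10 separated, while 10.1% of all genes were higher in every Ccl21a-high library and 31.2% in every Msln-high library. The median of H2-Ab1 in Ptprc-high libraries was 61.2 times that in Ccl21a-high, 52.0 times that in Msln-high and 615 times that in the remaining libraries. For Cd74 these ratios were 51.6, 43.3 and 540.0, and for H2-DMa 43.2, 51.4 and 75.8. From Ptprc-high to remaining libraries, H2-DMa thus spanned a narrower range than H2-Ab1 and Cd74.

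Per kilobase of exon, the scale on which genes are compared, and apart from any loss of reads over bases that differ in NOD, Cd74 led in Ptprc-high libraries with a median of 3807 CPM per kilobase. H2-Eb1 (1489), H2-Ab1 (1197) and H2-Aa (1132) followed, and their ranges of 1011 to 1633, 872 to 1270.3 and 865 to 1249.6 CPM per kilobase overlapped. H2-DMb2 came next at 229.8, followed by H2-DMa at 76.0, H2-Oa at 52.6, H2-DMb1 at 47.0, Ciita at 40.2 and H2-Ob at 28.5 CPM per kilobase. The last 5 each overlapped their neighbour in that order, whereas H2-DMb2 overlapped neither H2-Aa nor H2-DMa. In Ccl21a-high and Msln-high libraries the order of the chains after Cd74 was H2-Ab1, H2-Eb1 and H2-Aa. There H2-Ab1 had medians of 19.6 and 23.0 CPM per kilobase against 6.36 and 11.5 for H2-Aa.

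The 3 classical chains were therefore not in the same proportion in every class. Within a library, H2-Aa was 1.28 to 1.47 times H2-Ab1 in the 8 Ptprc-high libraries (median 1.42). It was 0.457 to 0.579 times H2-Ab1 in the 7 Ccl21a-high libraries, 0.663 to 0.956 in the 4 Msln-high and 0.691 to 1.20 in the 8 remaining ones. No library of another class reached the Ptprc-high range, and the Ccl21a-high range overlapped none of the others. The H2-Eb1 to H2-Ab1 ratio ran 0.877 to 0.988, 0.337 to 0.561, 0.624 to 0.735 and 0.713 to 1.5 in the same order, and the remaining libraries overlapped both the Ptprc-high and the Msln-high range. The Cd74 to H2-Ab1 ratio overlapped in all 4 classes, at 1.75 to 2.71, 1.76 to 3.13, 2.18 to 3.35 and 1.0 to 4.11. These ratios are free of the CPM total, and they stand on at least 29 H2-Aa counts and 36 H2-Ab1 counts per library.

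H2-DMb2 over H2-DMb1 was 2.95 to 9.17 in Ptprc-high libraries and 0.702 to 1.36 in Ccl21a-high libraries. It was 0.340 to 0.674 in Msln-high libraries, and 0.238 to 3.0 in the remaining libraries, where both genes had few counts. Every Ptprc-high library but the lowest lay above all other libraries. The H2-DMa to H2-Ab1 ratio was 0.0804 to 0.212 in the Ptprc-high, Ccl21a-high and Msln-high libraries and 0.372 to 1.31 in the remaining ones. In the remaining libraries H2-Ab1 itself was low, at 2.59 to 10.5 CPM. H2-DMb1 over H2-Ab1 also had its highest median there, 0.128, against 0.0253 in Ptprc-high, 0.0466 in Ccl21a-high and 0.0705 in Msln-high libraries.

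**Figure D2:**
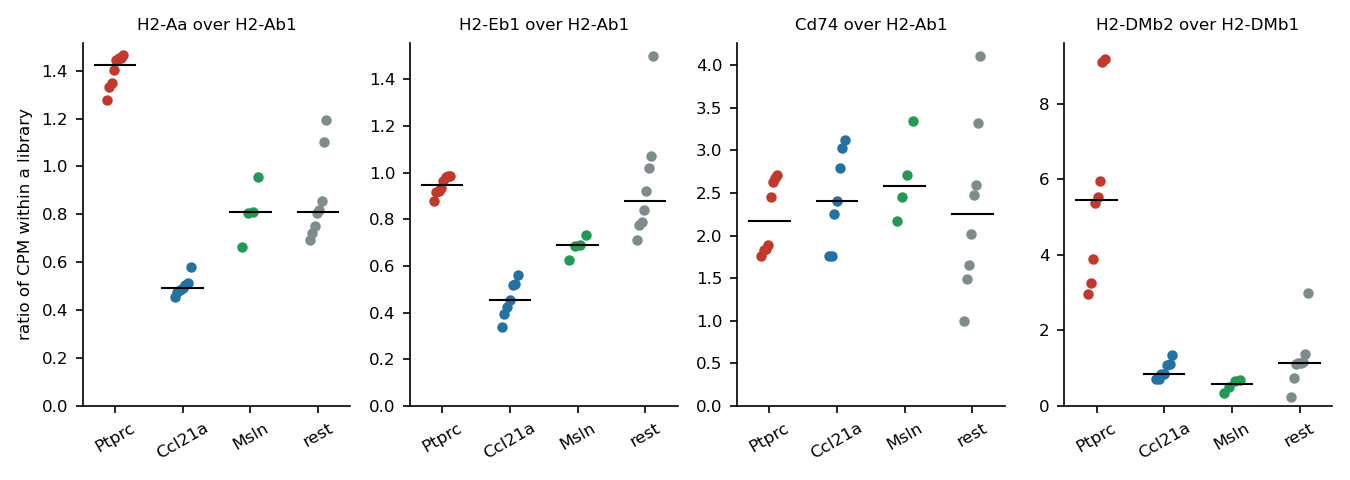
Ratio of the CPM of a pair of class II genes within each library (y axis, linear from 0), by library class (x axis); points are libraries and bars are class medians. H2-Aa over H2-Ab1 lies at 1.28 to 1.47 in Ptprc-high libraries and at 0.457 to 0.579 in Ccl21a-high libraries, while Cd74 over H2-Ab1 overlaps across classes.

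The residual class II level in libraries low in Ptprc was set beside their residual Ptprc. Ptprc was 1.28 to 5.79 CPM in Ccl21a-high libraries (19 to 98 counts), 0.175 to 1.13 CPM in Msln-high (3 to 16 counts) and 0.238 to 1.73 CPM in the remaining ones (6 to 24 counts). H2-Ab1 over Ptprc had a range of 3.94 to 19.2 in Ptprc-high libraries (median 6.17). It was 8.14 to 44.0 in Ccl21a-high libraries (median 21.3), 52.9 to 392.3 in Msln-high libraries (median 144) and 1.5 to 23.2 in the remaining ones (median 11.8). All 4 Msln-high libraries thus held more H2-Ab1 per Ptprc than any Ptprc-high library, although with as few as 3 Ptprc counts below the ratio. Ccl21a-high and remaining libraries overlapped the Ptprc-high range. For Cd74 over Ptprc the ranges were 6.92 to 47.2, 22.7 to 106, 129.5 to 853 and 6.17 to 57.5 in the same order, with the same pattern. Ciita over Ptprc was 0.467 to 2.69 in Ptprc-high libraries, 0.520 to 1.70 in Ccl21a-high, 4.06 to 36.0 in Msln-high and 0.167 to 2.5 in the remaining ones.

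Inside a class, no relation of a member with Ptprc was called. Pearson's r of log2(CPM + 1) with Ptprc was computed for all 10 genes over the 7 Ccl21a-high and the 8 remaining libraries, which gave 20 relations. By exact two-sided permutation none had a Benjamini-Hochberg adjusted p under 0.05, and the smallest adjusted p was 0.845. For H2-Ab1 r was -0.04 over the Ccl21a-high libraries (rho -0.21) and -0.43 over the remaining ones (rho -0.26). Without the 2 libraries farthest from the median of Ptprc these became 0.28 and 0.52. Over the 20 relations r ran from -0.43 for H2-Aa in the remaining libraries to 0.59 for Ciita in Ccl21a-high ones (rho 0.75). With 7 or 8 libraries even an r of that size was not called, so a weak or moderate relation could not have been detected. Both classes also mix sort labels and genotypes, which the permutation treated as exchangeable. The 4 Msln-high libraries were too few for a correlation.

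**Figure D3:**
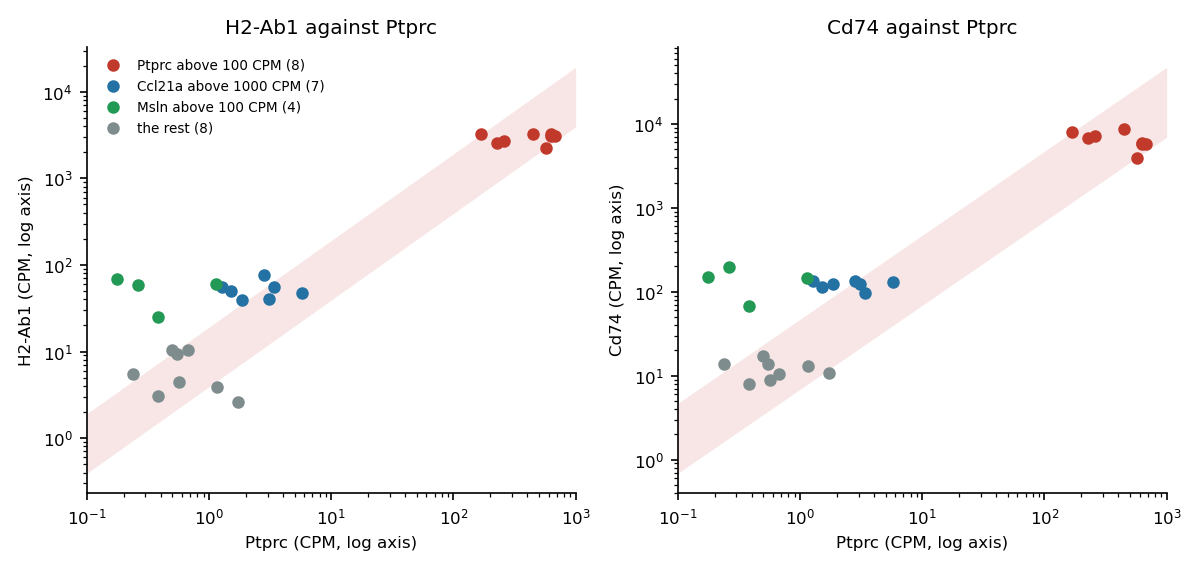
H2-Ab1 (left) and Cd74 (right) against Ptprc in 27 libraries, both in CPM on log axes, coloured by library class; the shaded band spans the range of the ratio to Ptprc seen in the 8 Ptprc-high libraries. The 4 Msln-high libraries lie above the band, and the Ccl21a-high and remaining libraries lie partly inside it.

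Summed markers of the cell types that express class II constitutively were low in the libraries low in Ptprc. Many single markers had medians under 1 CPM there, so a sum can rest on few genes. The 7 B cell markers summed to 1060.0 to 2104 CPM in Ptprc-high libraries, 10.1 to 43.6 CPM in Ccl21a-high, 2.68 to 6.40 CPM in Msln-high and 0.815 to 2.59 CPM in the remaining ones. Of these, 5 had medians under 1 CPM in Ccl21a-high and in Msln-high libraries, and all 7 in the remaining ones. The 7 dendritic cell markers summed to 151 to 345 CPM, 39.8 to 54.5 CPM, 31.0 to 38.8 CPM and 14.0 to 22.9 CPM. Xcr1 was at 0 in all Msln-high and all remaining libraries and Clec9a in all remaining ones, and 6 of the 7 markers had medians under 1 CPM in each class low in Ptprc. The 8 macrophage markers summed to 920.3 to 6465 CPM, 57.6 to 104 CPM, 137 to 155 CPM and 66.7 to 111 CPM. Medians under 1 CPM were seen for 5 of the 8 in Ccl21a-high, 4 in Msln-high and 5 in the remaining libraries. Among the 8, C1qa, a complement gene of tissue macrophages, was under 1 CPM in every library low in Ptprc. Csf1r, the receptor for macrophage growth factor, stood at 92.3 to 105 CPM in Msln-high libraries, 4.13 to 28.8 CPM in the remaining and 1.92 to 3.96 CPM in Ccl21a-high ones. The 9 T cell markers summed to 5.84 to 16.4 CPM in the Ccl21a-high and Msln-high libraries and 1.56 to 5.40 CPM in the remaining ones. The part of any of these cells in the class II level of the libraries low in Ptprc was not tested.

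Within the Ptprc-high class the 10 genes did not vary as 1 block. Each was set against Cd79a (B cells), Cd3e (T cells), Csf1r (macrophages) and Flt3 (dendritic cells) over the 8 libraries, as Pearson's r of log2(CPM + 1), which gave 40 relations. By exact two-sided permutation with Benjamini-Hochberg adjustment, 14 of the 40 had an adjusted p under 0.05, and 6 of 40 by Spearman's rho. Of the 14, 7 involved Csf1r or Flt3, and the 6 included H2-Ob with Csf1r, in the inverse direction. The 14 fell to between 3 and 5 when any 1 of the 8 libraries was left out, and to 8 with TMM-scaled library sizes. The permutation treated the 8 libraries as exchangeable, although they mix sort labels and genotypes. The part of those labels in the relations below was not tested.

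H2-DMb2 went with Cd79a, a chain of the B cell receptor. Across the 8 libraries H2-DMb2 was 241, 278.5, 296, 317, 486, 511, 543 and 598 CPM, in the same order as Cd79a, which ran from 267 to 754 CPM. The rank correlation was 1.0 and Pearson's r was 0.98 (adjusted p = 9.92e-04 by exact permutation), and r was 0.98 without the 2 libraries farthest from the median. H2-DMb2 values fell in a lower and an upper set of 4 libraries each, and the order held inside both. H2-Oa, which ran from 51.0 to 104 CPM, had an r of 0.97 with Cd79a (rho 0.98, adjusted p = 8.93e-03, exact permutation) and 0.95 without the farthest 2. These relations kept an adjusted p under 0.05 in all 12 alternatives run, including each left-out library, with r of at least 0.96.

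H2-Ob and Ciita followed Cd79a less firmly. H2-Ob had r = 0.85 (rho 0.90) and Ciita r = 0.87 (rho 0.79) with Cd79a, both with an adjusted p of 0.0361 by exact permutation. H2-Ob stayed under 0.05 in 5 of 12 alternatives and Ciita in 4 of 12. Cd79a and Cd3e rose together over these libraries, and H2-DMb2, H2-Oa and Ciita had r of 0.90, 0.93 and 0.81 with Cd3e (rho 0.88, 0.93 and 0.76; adjusted p = 0.0221, 0.0126 and 0.0421, exact permutation). Without the 2 farthest libraries these were 0.89, 0.95 and 0.88. Without the library labelled FRC TG+ replicate 3 the adjusted p for H2-DMb2 and H2-Oa with Cd3e rose to 0.104 and 0.0734 (exact permutation). Ciita with Cd3e stayed under 0.05 in 5 of 12 alternatives and with 1 of the 8 libraries left out, with r down to 0.66 and adjusted p up to 0.253 (exact permutation). The B cell and the T cell share of these relations cannot be told apart.

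The α and β chains behaved otherwise. Csf1r and Flt3 each fell into separate clusters: the libraries labelled CD45 TG- replicate 4, FRC TG+ replicate 2 and FRC TG+ replicate 4 held 267 to 329 CPM of Csf1r and 27.6 to 29.6 CPM of Flt3. The other 5 held 701 to 1139 CPM and 44.4 to 62.1 CPM. No pooled correlation is therefore given for these markers, and the relation could not be tested within clusters of 3 and 5. The same 3 libraries were the lowest for H2-Aa (3287, 3397 and 3675 CPM against 4156 to 4746 CPM), H2-Ab1 (2240.4, 2547 and 2725 CPM against 3057 to 3262 CPM) and H2-Eb1 (1965, 2506 and 2692 CPM against 2846 to 3174 CPM). They were also the lowest for H2-DMb1 (57.4, 59.7 and 65.2 CPM against 76.4 to 90.3 CPM) and H2-DMa (211, 228 and 249.9 CPM against 254 to 287 CPM). Over all genes with a class mean of at least 1 CPM, 13.6% of 12871 were likewise lower in these 3 than in the other 5, beside 5 of the 10 members. Cd74 was 3931, 6814 and 7171 CPM in the 3 and 5703 to 8734 CPM in the others, so its values overlapped. None of these 6 genes had an adjusted p under 0.05 with Cd79a or Cd3e (exact permutation), with r from -0.54 for H2-Aa to 0.55 for Cd74 with Cd79a.

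**Figure D4:**
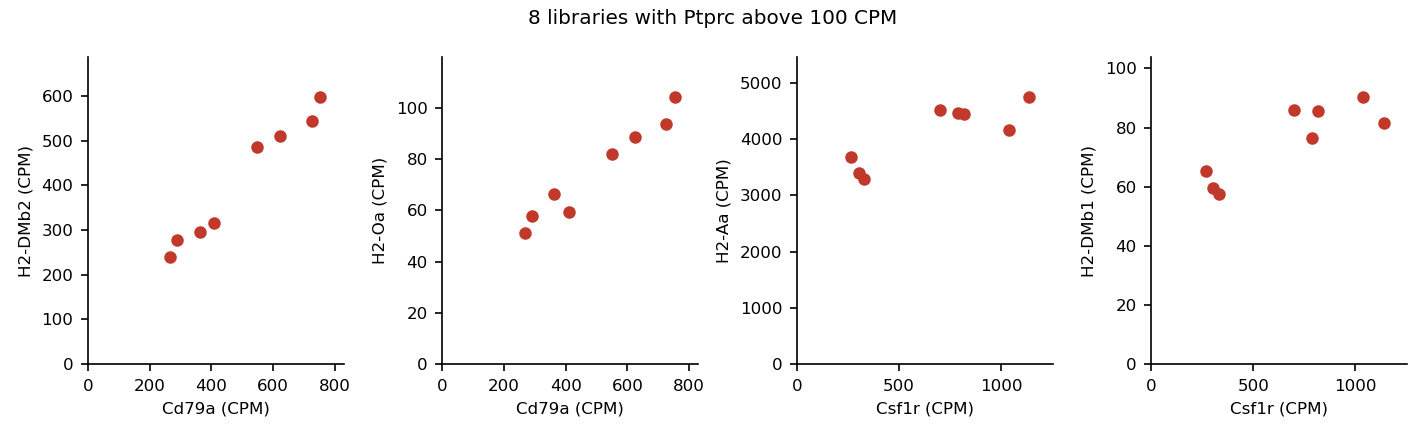
The 8 Ptprc-high libraries: H2-DMb2 and H2-Oa against Cd79a, and H2-Aa and H2-DMb1 against Csf1r, all in CPM on linear axes from 0. H2-DMb2 and H2-Oa rise along Cd79a, whereas the Csf1r values form 3 low and 5 high libraries.

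The genes with the most similar pattern, by Pearson's r of log2(CPM + 1) among genes with a mean of at least 5 CPM, differed between members. Over all 27 libraries and 11631 genes, those closest to H2-Ab1 outside the group were Dgkz (r = 0.98), Ncf4, Dusp4, Syk and Arhgap45. For Ciita they were Zc3h12d (0.99), Tcf7, Dusp2, Ikzf1 and Cd79a, and those for H2-Ob included Ikzf3, Acap1, Cnr2 and Ccr6. These correlations rest mainly on the gap between Ptprc-high libraries and the rest. Over the 8 Ptprc-high libraries and 9819 genes the closest to H2-Ab1 included Tmem104 (0.99), Scamp2, Slc6a6 and Atp6v0a1. Those closest to H2-Ob were Bcl11a (0.98), a B cell transcription factor, Fcrl1, Cecr2, Irf4 and Pxk, and to Ciita Rnf220 (0.99), Setd1a, Slc25a25, Ocel1 and Usp10. They were picked as the highest r of 9819 genes over only 8 libraries, so these r are a description. Inside this class H2-Ab1 had r = 0.96 with H2-Eb1 but 0.06 with Ciita and -0.36 with H2-Ob, while over all 27 libraries its r with those 3 genes was 0.99, 0.97 and 0.94. Over the 19 libraries low in Ptprc and 11253 genes, those closest to H2-Ab1 were Bnc2 (0.97), H6pd, the complement genes C2 and C3, and the water channel gene Aqp1. These libraries span 3 classes that differ in H2-Ab1, and likeness was not computed inside each.

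The other genes of the pathway were read from lists set beside the members, and those named here were chosen after their values were seen. The factors that bind the class II promoter were present in every class. Rfx5 was 29.9 to 49.2 CPM in Ptprc-high, 25.3 to 39.6 CPM in Ccl21a-high, 36.6 to 61.4 CPM in Msln-high and 13.2 to 29.9 CPM in the remaining libraries. Nfya ran 52.8 to 82.6, 53.4 to 90.1, 71.8 to 98.0 and 28.6 to 59.1 CPM in that order. Of the factors upstream of Ciita, Spi1 (PU.1 of myeloid and B cells) was 75.8 to 145 CPM in Ptprc-high libraries and at most 0.833 CPM elsewhere. Irf8, a factor of dendritic cells and B cells, was 285 to 464 CPM in Ptprc-high and 204 to 228 CPM in Ccl21a-high libraries, against 6.80 to 15.8 CPM in the other 2 classes. Irf8 was thus high in Ccl21a-high libraries, in which Spi1 was under 1 CPM.

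The proteases and the reductase, 6 genes in all, differed in their course over the classes. Ctss, which completes the cleavage of Cd74 in antigen-presenting cells, was 156 to 664 CPM in Ptprc-high libraries and 31.1 to 50.02 CPM in Ccl21a-high libraries, but at most 0.914 CPM in all 12 Msln-high and remaining libraries. Ctsl, which does this in thymic epithelium, ran the other way, with 17.6 to 108 CPM in Ptprc-high libraries and 339.8 to 726 CPM in all others. Ifi30, the lysosomal thiol reductase, was 170.3 to 318 CPM in Ptprc-high libraries and 9.69 to 34.7 CPM in the others. Lgmn, an asparagine-specific protease, was 125 to 615 CPM in Ptprc-high libraries and 28.1 to 112 CPM in the others. Ctsb and Ctsd, broadly expressed lysosomal cathepsins, overlapped, with 495 to 2043 CPM against 492 to 764 CPM and 145 to 357 CPM against 127 to 295 CPM. The ubiquitin ligase gene March1, which removes class II from the surface of antigen-presenting cells, was 19.1 to 74.3 CPM in Ptprc-high libraries and at most 0.861 CPM elsewhere. Its relative March8, expressed more widely, was 4.96 to 29.4 CPM against 48.7 to 131 CPM. Cd83, which opposes March1, was 342 to 523 CPM and at most 1.54 CPM.

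Of the costimulators, Cd86 was 13.6 to 66.8 CPM in Ptprc-high libraries and at most 0.281 CPM in the others. Cd80 was 3.26 to 16.7 CPM in Ptprc-high and 4.06 to 7.87 CPM in Ccl21a-high libraries, which overlapped, and at most 0.549 CPM in the other 2 classes. Ifng was 0.371 to 7.85 CPM in Ptprc-high libraries and at 0 in all Ccl21a-high and Msln-high ones. Its receptor chain Ifngr1 was 209 to 357 CPM in Ccl21a-high libraries and 84.9 to 180.2 CPM in all other libraries. H2-Eb2, a further class II β gene, was 39.8 to 59.2 CPM in Ptprc-high libraries and at most 0.473 CPM elsewhere.

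Sort and genotype come from the same labels, and whether labels were exchanged between libraries was not tested, so each difference by genotype or sort below is a difference between labels. These comparisons were fitted next with edgeR's quasi-likelihood test across all genes. In each of the 6 comparisons no gene had a Benjamini-Hochberg adjusted p under 0.05, so no member and no other pathway gene was called by edgeR. Differences are on the log2 scale, as fitted value ± SE, and the values of single libraries show where they come from. H2-Oa and H2-Ob are given as counts where libraries held few. Of the listed pathway genes, 7 of 7 promoter factors were tested each time, with medians of -0.31 to 0.28, and none was called. None of the 3 to 5 upstream activators, 2 to 4 costimulators, 6 proteases and reductases, 7 or 8 interferon gamma pathway genes or 1 to 3 turnover genes tested was called either.

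Libraries labelled CD45 were compared by genotype label. None of those labelled TG+ was Ptprc-high, so this comparison cannot answer whether CCL21 changes class II in islet leukocytes. H2-Ab1 was 39.6, 40.7, 56.2 and 2725 CPM in the 4 labelled TG- and 3.04, 3.92, 47.2 and 59.5 CPM in the 4 labelled TG+. The value of 2725 CPM is the only Ptprc-high library among the 8, and the groups otherwise overlapped. The fitted difference (TG+ minus TG-) was -5.15 ± 2.03 for H2-Ab1, -5.15 ± 2.01 for Cd74, -4.55 ± 1.58 for H2-DMa and -6.26 ± 2.34 for Ciita (edgeR adjusted p of 0.506 to 0.508 over the 8 members tested). The largest was -7.06 ± 2.49 for H2-DMb2 and the smallest -3.41 ± 1.34 for H2-DMb1. At an unadjusted p under 0.05 edgeR had 8 of the 8 members and 1402 of 14871 genes (9.43%), and the median over the members was -5.50 against -0.05 over all genes. DESeq2 called 427 genes (2.87%) and none of these members, and limma-voom with quality weights called 6150 genes (41.4%) and all 8. Without the library labelled CD45 TG- replicate 4 the median over the members was -0.47 and none passed an unadjusted p of 0.05. Without the one labelled CD45 TG+ replicate 3, edgeR called 519 genes, with none of the members among them. With any 1 of the 4 TG+ libraries left out, at most 2 members had an unadjusted p under 0.05.

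In libraries labelled gp38-low, H2-Ab1 was 10.5, 55.4, 58.7 and 3057 CPM in TG- and 2.59, 9.33, 50.2 and 76.2 CPM in TG+. Again 1 TG- library stood apart, and the other 7 overlapped by genotype. The difference was -4.52 ± 2.01 for H2-Ab1, -4.49 ± 1.99 for Cd74, -3.38 ± 1.58 for H2-DMa (the smallest) and -5.38 ± 2.10 for Ciita, with the largest at -5.83 ± 2.30 for H2-Aa (edgeR adjusted p = 0.999 for each). By edgeR 5 of 8 members and 273 of 14095 genes (1.94%) had an unadjusted p under 0.05, and the median was -4.82 against -0.01 over all genes. DESeq2 called 1 gene (0.00709%) that was no member, and limma-voom none. Without the library labelled gp38-low TG- replicate 1 the median over the members was -0.23, none had an unadjusted p under 0.05, and the H2-DMa difference turned to 0.41. With 1 TG+ library left out, at most 2 members had one.

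The 4 libraries labelled gp38-high, fitted together with the gp38-low libraries for a shared estimate of spread, held 24.8 and 3219 CPM of H2-Ab1 in TG- and 4.47 and 5.52 CPM in TG+. The TG+ values lay below both TG- values, of which 1 is Msln-high and 1 Ptprc-high. The difference was -8.60 ± 3.56 for H2-Ab1, -8.86 ± 3.57 for Cd74, -5.92 ± 2.70 for H2-DMa (the smallest) and -9.06 ± 3.64 for Ciita, and H2-Aa had -9.34 ± 3.93 (edgeR adjusted p = 0.663 for each). H2-Oa had 5 and 1432 counts in TG- and 1 and 0 in TG+, and H2-Ob had 1 and 3269 in TG- and 1 and 0 in TG+. By edgeR 9 of 10 members and 920 of 17937 genes (5.13%) had an unadjusted p under 0.05. The median of the 8 members other than H2-Oa and H2-Ob was -8.71 against -0.20 over all genes. DESeq2 called 40 genes (0.223%), with none of the members, and limma-voom called none. Without the library labelled gp38-high TG- replicate 2 the median over all 10 was -1.99, and none had an unadjusted p under 0.05. The same count was 0 without either TG+ library.

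In libraries labelled lymph node FRC, H2-Ab1 was 10.5, 68.7, 3089 and 3251 CPM in TG- and 2240.4, 2547 and 3262 CPM in TG+. The groups overlapped, and the labels held 2 and 3 Ptprc-high libraries. Differences ran from 0.70 ± 1.42 for H2-DMb1 to 1.23 ± 1.96 for H2-Ob, with 0.83 ± 1.61 for H2-Ab1, 0.77 ± 1.66 for Cd74, 0.87 ± 1.41 for H2-DMa and 0.89 ± 1.65 for Ciita (edgeR adjusted p of 0.889 to 0.896 over the 10). None of the 10 had an unadjusted p under 0.05, beside 981 of 13819 genes (7.10%), and the median over the 10 was 0.88 against 0.03 over all genes. DESeq2 called 549 genes (3.97%), none of them a member, and limma-voom called none. The fold therefore lay within the spread of these libraries.

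Across sort labels, libraries labelled CD45 were set against the 19 labelled as stroma. Of the 8 Ptprc-high libraries only 1 was labelled CD45, and the others were labelled as stroma (1 gp38-high, 1 gp38-low and 5 FRC). The part of that imbalance in the differences was not tested. Differences ran from -1.41 ± 0.99 for H2-DMa to -0.56 ± 1.84 for H2-Ob, with -1.14 ± 1.16 for H2-Ab1, -0.86 ± 1.14 for Cd74 and -1.13 ± 1.22 for Ciita (edgeR adjusted p of 0.665 to 0.950). None of the 10 had an unadjusted p under 0.05, beside 1836 of 19010 genes (9.66%), and the median was -1.18 against 0.02. The fitted level was thus lower in libraries labelled as leukocytes than in those labelled as stroma, within the spread. DESeq2 called 302 genes (1.59%) and no member, and limma-voom called 7312 genes (38.5%), with 9 of 10 members. Without the 8 Ptprc-high libraries the difference turned to 0.72 for H2-Ab1, 0.98 for Cd74, 0.16 for H2-DMa and 0.11 for Ciita. Without the library labelled gp38-high TG- replicate 2 alone the median was -0.07 and Cd74 turned to 0.21, without the one labelled gp38-low TG- replicate 1 it was -0.34, and without the one labelled CD45 TG- replicate 4 it was -4.00, with 9 of 10 members at an unadjusted p under 0.05. Without the library labelled gp38-low TG- replicate 3, edgeR called 59 genes and no member.

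Finally, libraries labelled gp38-low were set against those labelled FRC, with genotypes weighted equally. The 4 libraries labelled gp38-high, 1 of them Ptprc-high, were also in the fit, where they entered the filter, scaling and spread but not the difference. The difference was -3.84 ± 1.43 for H2-Ab1, -3.99 ± 1.44 for Cd74, -3.18 ± 1.20 for H2-DMa (the smallest) and -4.44 ± 1.49 for Ciita (edgeR adjusted p of 0.0943 to 0.0972). The fitted difference was largest for H2-Oa, which had 662, 3, 0 and 0 counts in gp38-low TG- libraries, 0 to 2 in TG+ and 0 to 1513 in those labelled FRC. All 10 had an unadjusted p under 0.05, as did 6639 of 18396 genes (36.1%). The median of the 8 members other than H2-Oa and H2-Ob was -4.09 against 0.15 over all genes. DESeq2 called all 10 among 4777 genes (26%), and limma-voom all 10 among 8632 genes (46.9%). The edgeR call turned on 1 library: without the one labelled gp38-low TG- replicate 1 all 10 were called, among 5403 genes, with a median of -6.88. Without the one labelled FRC TG- replicate 1, 1369 genes were called and no member. The 15 libraries of the 2 labels compared held 1 Ptprc-high library among the 8 labelled gp38-low and 5 among the 7 labelled FRC. The part of that imbalance in the difference was not tested.

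**Figure D5:**
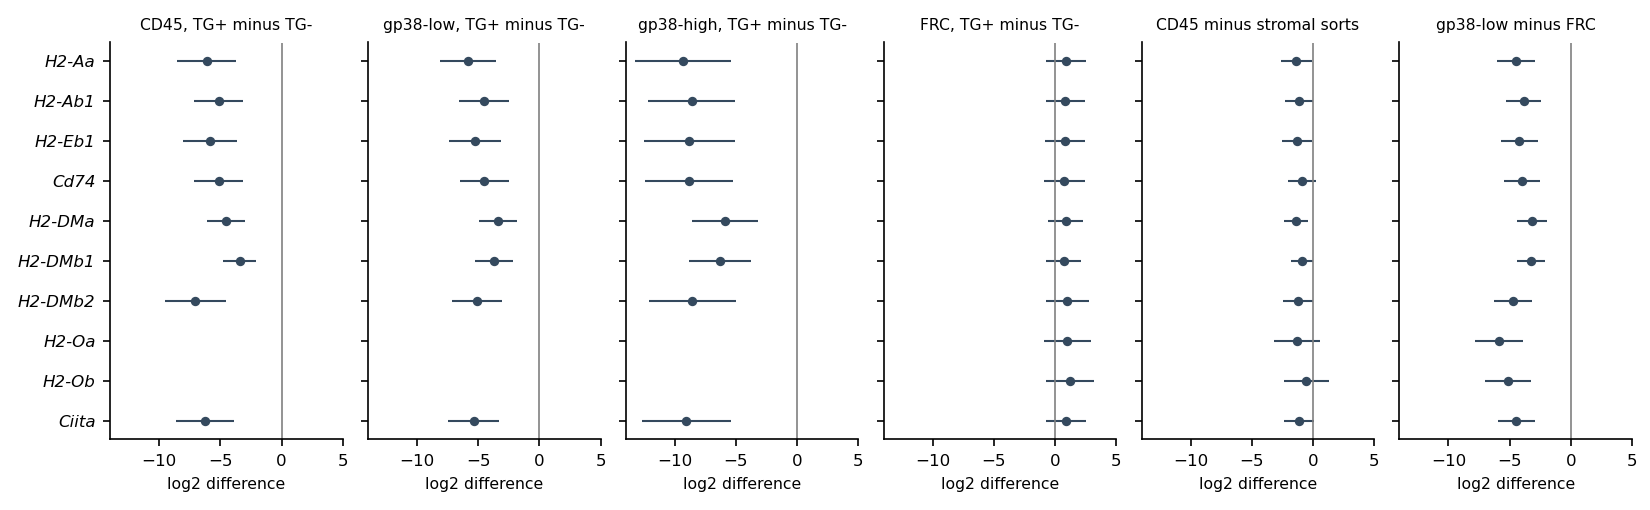
Fitted log2 difference (x axis) of each class II gene (y axis) in the 6 comparisons set by the labels; points are edgeR estimates and bars are ± 1 SE. Estimates lie below 0 in all comparisons except that of FRC, where every bar crosses 0, and genes not tested or with 0 to 1 counts in a group are left out.

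Genotype was last read inside a class, without a test, because sorts were mixed in it. H2-Ab1 was 2725 to 3251 CPM in the 5 Ptprc-high libraries labelled TG- and 2240.4 to 3262 CPM in the 3 labelled TG+, which overlapped. In Ccl21a-high libraries it was 39.6 to 56.2 CPM in 4 TG- and 47.2 to 76.2 CPM in 3 TG+, also overlapping. Of the 10 members none separated by genotype label in the Ptprc-high class, where 2.48% of 12871 genes were higher in every TG- library and 0.186% in every TG+ library. H2-DMb2 was 1.83 to 2.23 CPM in the 4 Ccl21a-high libraries labelled TG- and 2.68 to 3.95 CPM in the 3 labelled TG+. It was the only one of 8 members with a class mean of at least 1 CPM to separate there, beside 1.36% of 13615 genes in that direction and 0.676% in the other. The 2 libraries nearest that gap held 35 (TG-) and 34 (TG+) counts of H2-DMb2, so the gap lies within counting error. In the remaining libraries the 2 labelled TG- were above the 6 labelled TG+ for 3 of 5 such members: H2-Ab1 (10.45 and 10.49 CPM against 2.59 to 9.33 CPM), H2-Eb1 (7.48 and 10.7 CPM against 3.26 to 7.34 CPM) and H2-DMa (3.91 and 4.31 CPM against 2.58 to 3.57 CPM). The lowest TG- library held 148, 67 and 35 counts for these 3 genes, and the highest TG+ library 136, 107 and 52. Such gaps lie within counting error, so no order by genotype is read. Of 13706 genes in the remaining libraries, 12.7% separated in that direction and 31.1% in the other. Cd74 in those libraries was 10.5 and 17.2 CPM in TG- and 7.88 to 13.9 CPM in TG+, and overlapped.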

How the data were processed

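Sorted cells of NOD/ShiLtJ mice were sequenced as bulk RNA in 27 libraries, with a KAPA RNA HyperPrep kit and removal of ribosomal RNA per the labels' protocols. The submitters' processing notes name bcl2fastq 2.17, Trim Galore 0.4.3, STAR 2.5.2a and mm10. Which annotation release was used was not stated there. The deposited files hold whole-number read counts per gene, unstranded and for each strand. The reverse-strand counts were used, because forward counts were 6.67% to 15.3% of both. Reads that name no gene were left out: 19.4% to 67.7% of reads were unmapped, 4.98% to 7.28% mapped to several places and 6.37% to 26.8% lay outside genes or were ambiguous. Reads in genes numbered 8517844 to 25194443 per library, so 3 counts, the floor used for a count of 0, equal 0.119 to 0.352 CPM. Intervals and floors cover counting error only. No 2 libraries agreed within sampling noise (lowest chi-square per degree of freedom 6.60). Of the identifiers 54409 matched GENCODE M21.

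The members, pathway lists, markers and class thresholds were chosen with earlier results of these data known. Named genes were the 10 members, the class genes, 1 marker per cell type, pathway genes, and the 5 genes most like H2-Ab1, Ciita and H2-Ob; some genes under this rule are not reported here. Genes kept by edgeR's expression filter were fitted with edgeR 4.0.16 (quasi-likelihood test, TMM scaling, R 4.3.3) and p-values were adjusted by Benjamini-Hochberg over all genes tested, with 0.05 as the threshold. SE is the absolute log2 difference divided by the square root of F. H2-Oa and H2-Ob did not pass the filter in the CD45 and gp38-low comparisons. Each population was fitted alone except gp38-high, and comparisons between sort labels weighted genotypes equally. The edgeR fit was run on simulated counts for the CD45 comparison only, with a fixed spread around a common mean profile. The real libraries of that label fall in different classes, so the simulation does not give the power of these fits. Alternatives were DESeq2 1.42.0, limma 3.58.1, other scaling, filters and strand settings, the replicate block and each library left out. Leaving out all Ptprc-high libraries was chosen after seeing the data. Correlations used exact permutation on log2(CPM + 1). Sequences come from RefSeq on GRCm38.p6.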

Additional observations from a re-analysis of the deposited data

Results flagged for a closer look

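In each labelled group of 4 libraries, a library was singled out when its gap to the nearest other exceeded Dixon's 95% limit. Of 50 checks (10 genes in 5 groups) 21 passed, where chance gives about 1 in 20. The 10 genes are not independent of each other. The library labelled CD45 TG- replicate 4 stood above the other 3 CD45 TG- libraries for all 10 genes: H2-Aa 3675 CPM, H2-Ab1 2725 CPM, H2-Eb1 2692 CPM, Cd74 7171 CPM, H2-DMa 249.9 CPM, H2-DMb1 65.2 CPM, H2-DMb2 598 CPM, H2-Oa 104 CPM, H2-Ob 207 CPM and Ciita 464 CPM. The next highest library of that group held 56.2 CPM of H2-Ab1 and 135 CPM of Cd74.

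The library labelled gp38-low TG- replicate 1 stood apart in its group in the same way. It held 4445 CPM of H2-Aa, 3057 CPM of H2-Ab1, 2943 CPM of H2-Eb1, 5762 CPM of Cd74, 278 CPM of H2-DMa, 85.5 CPM of H2-DMb1, 278.5 CPM of H2-DMb2, 57.6 CPM of H2-Oa, 138 CPM of H2-Ob and 357 CPM of Ciita. The next highest held 58.7 CPM of H2-Ab1. Both are Ptprc-high libraries. The last was H2-DMa in the library labelled gp38-low TG+ replicate 3, a Ccl21a-high library, at 16.1 CPM against 5.44 CPM in the next.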

How the results depend on the processing

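Of 672 alternative values for single genes or relations, 557 kept direction and side of the threshold, 88 lost the threshold, 20 passed it and 7 reversed. Of 206 values that answer a comparison, 181 were close to the reported value and 25 moved; the cause was not tested. With Gm26917 and mitochondrial genes left out of the total, the Ptprc-high medians were 4034 CPM for H2-Ab1 and 8873 CPM for Cd74, and the Ccl21a-high median of Cd74 was 139.9 CPM. Relations in the Ptprc-high class numbered 8 with TMM-scaled sizes and 3 to 5 with 1 library left out, against 14. Against 0 genes by edgeR, DESeq2 called 427 (357 higher, 70 lower) in CD45, 1 in gp38-low, 40 in gp38-high, 549 (all lower) in FRC, 302 in CD45 against stroma and 4777 in gp38-low against FRC, and limma-voom called 6150 in CD45, 7312 in CD45 against stroma and 8632 in gp38-low against FRC. With 1 library left out, edgeR called 0 to 519 in CD45, 0 to 59 in CD45 against stroma and 0 to 5403 in gp38-low against FRC, where it was 1369 without the library labelled FRC TG- replicate 1. Reversed values were 0.41 for H2-DMa in gp38-low without the library labelled gp38-low TG- replicate 1, alone or as the Ptprc-high library, and, in CD45 against stroma without Ptprc-high libraries, 0.72 for H2-Ab1, 0.98 for Cd74, 0.16 for H2-DMa and 0.11 for Ciita, with 0.21 for Cd74 without the one labelled gp38-high TG- replicate 2. With 1 library left out these ran from -4.27 to 0.41 for H2-DMa in gp38-low and from -2.94 to 0.21 for Cd74 in CD45 against stroma. With the replicate block edgeR called 0 genes in all 6 comparisons, and the members' median was -1.69 in CD45 and -5.04 in gp38-low against FRC. Same-numbered libraries had correlations of -0.189 to 0.235 in CD45, 0.0609 to 0.692 in gp38-low, -0.168 to -0.0125 in FRC and -0.0125 in gp38-high. The labels do not state whether replicate numbers pair samples. These correlations cannot decide it, because libraries of 1 label fell in different classes. In gp38-high, with 2 libraries per genotype, both replicate numbers are bound to give the same value. Low depth limits H2-Oa, H2-Ob and the ratios to Ptprc outside the Ptprc-high class.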

Other observations

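Non-leukocyte markers also varied inside the classes in which class II was described. The 4 acinar markers summed to 178 to 2299 CPM in Ptprc-high libraries, 0.0638 to 0.548 CPM in Ccl21a-high, 59.98 to 319 CPM in Msln-high and 58.2 to 6242 CPM in the remaining libraries. The 7 fibroblast markers summed to 25.9 to 115 CPM in Ptprc-high libraries and 12896 to 41250 CPM in all others (lowest in a Msln-high library, highest in a remaining one). The 5 lymphoid stroma markers, which include Ccl21a, summed to 3298 to 7199 CPM in Ccl21a-high libraries. The 5 mesothelial markers, which include Msln, summed to 3632 to 5316 CPM in Msln-high libraries.

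The macrophage-marker sum in Ptprc-high libraries ran from 920.3 to 6465 CPM and the plasma cell sum from 213 to 1423 CPM. The B cell sum ran from 1060.0 to 2104 CPM and the T cell sum from 929.7 to 1860 CPM.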
